A study of Mus musculus with 32 samples.

Results

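The genes described here are 8 regulators of small Ras-family GTPases in the mouse striatum. They were chosen by name, with earlier results of these data known, and make up 8 of the 54532 genes in the count table. They are Rasd2 (Rhes), Rasd1 (Dexras1), Rasgrp1, Rasgrp2, Rasgrf1, Rasgrf2, Rap1gap and Rasal1. PolyA-selected RNA from the striatum of 32 mice aged 6 months was sequenced in 4 groups of 8, namely wild-type (WT), Msh3-/-, zQ175 and zQ175:Msh3-/-. WT mice carried neither allele, and each group held 4 males and 4 females, apart from zQ175:Msh3-/- with 5 males and 3 females. All mice were littermates on a C57BL/6J background. The zQ175 allele is a knock-in that places a greatly expanded CAG repeat in the endogenous Htt gene, so mutant huntingtin is made wherever Htt is expressed and not only in the striatum. The Msh3-/- mice came from a line edited with Cas9 over exons 3 to 8 of Msh3, a mismatch repair gene needed for somatic expansion of that repeat, and the knockout is constitutive. The comparisons ask how zQ175 changes these regulators and whether the change differs without Msh3.

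Small GTPases of the Ras family are on when bound to GTP and off when bound to GDP. Guanine nucleotide exchange factors turn them on, GTPase-activating proteins (GAPs) turn them off, and in striatal neurons both respond to calcium, diacylglycerol and dopamine, upstream of the Raf-MEK-ERK kinases. Rhes is a Ras-like GTPase named for its enrichment in the striatum, where it is made mainly by spiny projection neurons, the principal neurons of this tissue and those most affected in Huntington's disease. It binds mutant huntingtin and takes part in cAMP and mTOR signalling. Dexras1, its closest relative, was found as a dexamethasone-induced gene.

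Sequencing gave between 12359347 and 25030335 counted reads a mouse, and 16610 genes passed the filter on low counts, among them all 8 regulators. Msh3 was counted at 24.5 ± 1.61 CPM (counts per 1000000, SD, n = 8) in WT and 11.8 ± 1.2 CPM in Msh3-/- striata, and at 24.4 ± 1.53 and 12.9 ± 1.15 CPM in zQ175 and zQ175:Msh3-/- striata, with no overlap between carriers and non-carriers of the knockout. These counts cover the whole gene, reads outside the edited part included. All 12 spiny projection neuron markers examined were detected. The mice also differed in the summed level of 8 markers of cortical excitatory neurons, which ranged from 44.8 to 561 TPM (transcripts per 1000000), and of 4 choroid plexus markers, which ranged from 37.7 to 5710.7 TPM, with none of these markers at 0 in every mouse of a group. Fits with the cortical level in the model, and for Rasgrp1 and Rasd1 with the choroid plexus level, are given below.

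Per unit of transcript length, Rasd2 and Rap1gap had the highest levels of the 8 in WT striatum, at 637 ± 68 and 617 ± 87.7 TPM (SD, n = 8), and their ranges overlapped. Rasgrp2 at 322 ± 27.8 TPM and Rasgrp1 at 299 ± 12.6 TPM followed, again with overlapping ranges. Rasgrf1, a calcium- and calmodulin-dependent exchange factor, stood at 165 ± 12.9 TPM, apart from its neighbours on both sides. Rasgrf2 at 25.5 ± 5.27 TPM and Rasal1 at 19.9 ± 3.96 TPM overlapped each other, and Rasd1 was lowest at 2.74 ± 1.33 TPM. The paralogues Rasd2 and Rasd1 were thus far apart in level, with a mean Rasd2 to Rasd1 TPM ratio of 280 ± 136 in WT. In zQ175 striatum the order of the upper members changed: Rap1gap stood at 462 ± 35.3 TPM and Rasd2 at 427 ± 42.9 TPM, and Rasgrp1 at 248 ± 14.2 TPM came before Rasgrp2 at 210 ± 19.4 TPM, with overlap in both pairs.

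**Figure D1:**
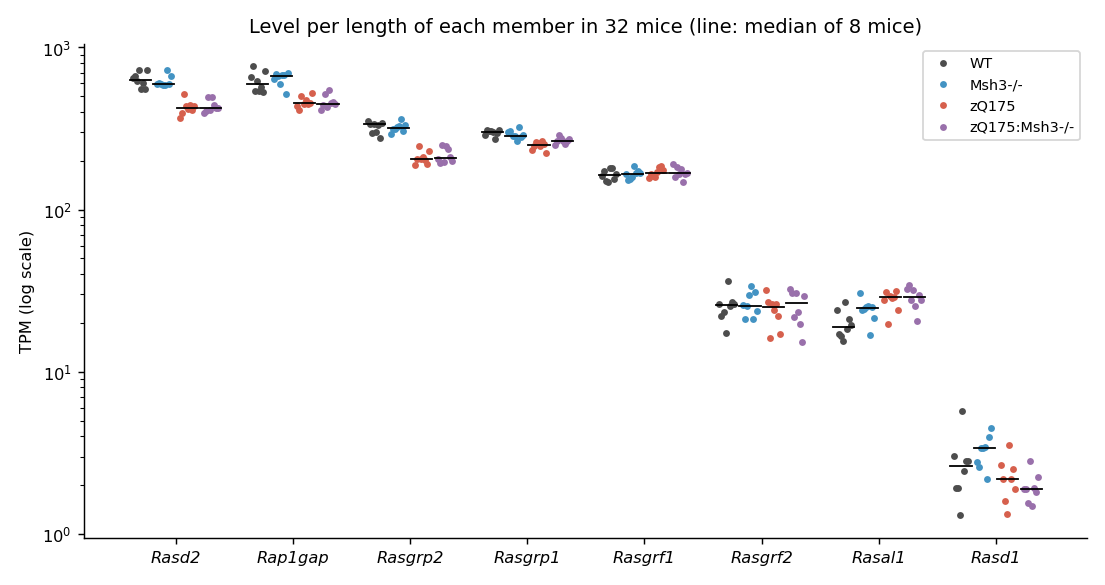
Level of each regulator in TPM (log axis) in every mouse, coloured by genotype, with a line at the median of 8 mice. Rasd2 and Rap1gap are highest and Rasd1, with a WT mean of 2.74 TPM, is lowest, and the zQ175 and zQ175:Msh3-/- mice lie below the other mice for Rasd2 and Rasgrp2, with some overlap for Rap1gap.

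The genes lie on separate chromosomes. On GRCm38, with GENCODE M21 coordinates, Rasd2 spans chr8:75213944-75224113 on the plus strand, Rasd1 chr11:59963181-59964944 on the minus strand, Rasgrp1 chr2:117279993-117343001 on the minus strand and Rasgrp2 chr19:6399340-6415216 on the plus strand. Rap1gap spans chr4:137664726-137729861 and Rasgrf1 chr9:89909908-90026977, both on the plus strand, Rasgrf2 chr13:91880400-92131656 on the minus strand and Rasal1 chr5:120648812-120679597 on the plus strand. Genes on the other strand overlap Rasgrp2 (Gm14965) and Rap1gap (Rap1gapos), and both were nearly silent, at 0.0616 and 0.0159 mean CPM at most. The table of RefSeq promoters (GRCm38.p6) holds 13 windows for 6 of the 8 genes, leaving Rasd1 and Rasal1 unmatched. Of each window the 250 bases before the transcription start were searched on both strands for the cAMP response element TGACGTCA and its core TGACG, the TATA box TATAAA, the E-box CANNTG, the glucocorticoid receptor motif AGAACA and the EGR site GCGTGGGCG. The windows of the 3 genes that were lowest relative to WT in zQ175 striatum, and of Rasgrf2, which passed no test, are shown to set genes that moved together beside one that did not move with them, 5′ to 3′ with the matches in capitals.
Rasd2, chr8:75213694-75213943, plus strand: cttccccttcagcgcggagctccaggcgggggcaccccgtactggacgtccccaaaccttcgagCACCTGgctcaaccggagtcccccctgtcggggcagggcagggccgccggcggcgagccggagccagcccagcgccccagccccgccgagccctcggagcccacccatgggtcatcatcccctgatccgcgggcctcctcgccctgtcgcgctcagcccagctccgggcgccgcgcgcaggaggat
Rasgrp2, chr19:6399625-6399874, plus strand, the first of its 2 windows: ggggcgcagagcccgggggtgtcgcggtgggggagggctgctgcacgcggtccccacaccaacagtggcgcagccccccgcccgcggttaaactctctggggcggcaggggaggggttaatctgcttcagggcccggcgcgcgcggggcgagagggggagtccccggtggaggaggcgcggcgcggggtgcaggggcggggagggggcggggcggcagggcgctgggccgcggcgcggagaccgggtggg
Rap1gap, chr4:137664476-137664725, plus strand, the window at its first annotated base, of 7 windows: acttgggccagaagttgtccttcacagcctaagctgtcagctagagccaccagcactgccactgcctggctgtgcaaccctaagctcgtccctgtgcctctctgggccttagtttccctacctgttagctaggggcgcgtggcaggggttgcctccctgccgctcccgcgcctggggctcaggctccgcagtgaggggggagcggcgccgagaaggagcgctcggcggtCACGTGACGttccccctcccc
Rasgrf2, chr13:92131829-92132078, minus strand: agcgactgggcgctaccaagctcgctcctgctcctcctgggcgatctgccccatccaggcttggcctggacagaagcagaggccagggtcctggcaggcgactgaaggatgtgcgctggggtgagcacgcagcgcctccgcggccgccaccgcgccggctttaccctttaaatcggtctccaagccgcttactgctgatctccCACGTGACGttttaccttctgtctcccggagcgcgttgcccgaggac
These windows are rich in G and C, at 75.2% for Rasd2, 79.6% for Rasgrp2, 66.4% for Rap1gap and 65.2% for Rasgrf2, against a median of 52.4% over the 32851 windows in the table. The full cAMP response element (in 1.55% of all windows), the TATA box (12.4%) and the EGR site (0.536%) were in none of the 13 windows. An E-box, present in 66.2% of all windows, was found for 5 of the 6 genes, at 186 bases before the Rasd2 start, and was in neither window of Rasgrp2. Rap1gap, which fell in zQ175 striatum, and Rasgrf2, which passed no test, both held the palindromic E-box CACGTG overlapping a TGACG core. The core begins 17 bases before the start of Rap1gap and 43 bases before that of Rasgrf2. It was also found 145 bases before the start of Rasgrf1, and in 17.8% of all windows. The glucocorticoid receptor motif was in 1 window of Rap1gap, further downstream, and in 16.1% of all windows. These are matches of letters and no measure of binding.

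In zQ175 compared with WT striatum, 4 of the 8 regulators fell and 1 rose. Rasd2, Rasgrp2, Rap1gap and Rasgrp1, the 4 highest of the 8 genes per length, were the ones that fell, and Rasal1 rose. A change was called at a Benjamini-Hochberg adjusted p under 0.05 in edgeR's quasi-likelihood test with a fold change of at least 1.2. Of all genes tested, 6.89% were called lower and 4.7% higher by the same criteria. As the 8 genes were chosen with earlier results known, their share beside this background is a description and no test. The median log2 fold change was -0.34 over the 8 genes, from -0.74 to 0.41, and 0.01 over all genes tested. In this tissue, fewer cells of a type and less RNA per cell cannot be told apart.

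Rhes mRNA fell in zQ175 striatum, with and without Msh3. In WT striata Rasd2 had a lowest, median and highest value of 661, 776 and 887 CPM, and in zQ175 striata 432, 497 and 611 CPM. Every zQ175 mouse was thus below every WT mouse. The log2 fold change was -0.63 (SE 0.0656, 95% confidence interval -0.77 to -0.50, adjusted p = 2.86e-09 in edgeR's quasi-likelihood test), which leaves 64.5% of the WT level. The exact two-sided permutation test of 8 against 8 mice gave p = 0.000155, the smallest it allows. In the absence of Msh3, the 3 values were 692, 731 and 886 CPM in Msh3-/- and 471, 483 and 573 CPM in zQ175:Msh3-/- striata, again without overlap. This amounted to a log2 fold change of -0.57 (SE 0.0656, adjusted p = 2.75e-08, edgeR). None of these 16 mice belongs to the groups of the first comparison. The estimate of spread is shared, however, because 1 model was fitted to all mice, so the 2 test results are not independent. Fitted with only the 2 groups compared, the adjusted p was 2.56e-06 with Msh3 and 6.24e-08 without it (edgeR).

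Dexras1, the low-level paralogue, was less certain, resting on 14 to 89 reads a mouse. Rasd1 values in WT were 0.913 at lowest, 1.83 at the median and 3.96 CPM at highest, and in zQ175 striata 0.908, 1.44 and 2.35 CPM. The groups overlapped, and the log2 fold change of -0.36 (SE 0.213, 95% confidence interval -0.79 to 0.07) did not pass the test (adjusted p = 0.224, edgeR). One male WT mouse, replicate M1, holds the value of 3.96 CPM, and without it the log2 fold change was -0.10 (adjusted p = 0.745). Without Msh3, Rasd1 fell, from 1.54, 2.32 and 3.15 CPM in Msh3-/- to 0.979, 1.28 and 1.87 CPM in zQ175:Msh3-/- striata, where 7 of 8 mice were below every Msh3-/- mouse. Its log2 fold change was -0.80 (SE 0.218, adjusted p = 0.00599, edgeR; exact permutation p = 0.000622). With a test against a 1.2-fold change the adjusted p was 0.0784, and with males or females alone it was 0.05 and 0.0708. Whether the zQ175 effect on Rasd1 differs between Msh3 genotypes was tested by the interaction, which was -0.44 on the log2 scale (95% confidence interval -1.06 to 0.18, unadjusted p = 0.161, adjusted p = 0.999, edgeR) and so did not pass.

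Of the 4 exchange factors, both calcium- and diacylglycerol-responsive members fell with zQ175 and neither Rasgrf gene passed the test. Rasgrp2, also called CalDAG-GEFI, acts mainly on Rap1 and showed the largest change of the 8 genes in this comparison. Its lowest, median and highest values were 231, 281 and 293 CPM in WT and 138, 156 and 192 CPM in zQ175 striata. No zQ175 mouse reached the WT range, and the log2 fold change was -0.74 (SE 0.0647, 95% confidence interval -0.88 to -0.61, adjusted p = 5.61e-11, edgeR), or 59.7% of WT. In the Msh3-/- background the values fell from 241, 262 and 307 to 150, 157 and 189 CPM, also without overlap. This was a log2 fold change of -0.68 (SE 0.0648, adjusted p = 6.03e-10, edgeR).

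Rasgrp1, an exchange factor for Ras itself, fell by a smaller amount and varied little between mice, with coefficients of variation from 3.74% in WT to 6.96% in Msh3-/- striata. It ran from 613 over 665 to 681 CPM in WT and from 476 over 525 to 562 CPM in zQ175 striata, so the groups did not overlap. The log2 fold change was -0.32 (SE 0.0396, adjusted p = 4.73e-08, edgeR; exact permutation p = 0.000155), near the 1.2-fold limit, and a test against that limit gave an adjusted p of 0.298. Without Msh3 the values were 568, 631 and 712 CPM in Msh3-/- and 528, 559 and 603 CPM in zQ175:Msh3-/- striata, with 6 of 8 zQ175:Msh3-/- mice below every Msh3-/- mouse. The log2 fold change of -0.19 (SE 0.0396, adjusted p = 0.00031, edgeR) passed the adjusted p but not the fold. Rasgrp1 tracked the choroid plexus markers negatively within genotypes (Pearson r = -0.53 over 32 mice), and with the level of these markers in the model the log2 fold changes were -0.33 (adjusted p = 2.38e-09) and -0.20 (adjusted p = 3.04e-05).

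The balance between the Rasgrp paralogues shifted. The Rasgrp2 to Rasgrp1 TPM ratio was 1.08 ± 0.109 (SD, n = 8, range 0.93 to 1.22) in WT and 0.849 ± 0.0954 (range 0.753 to 1.03) in zQ175 striata. The ranges overlapped, and the exact two-sided permutation test gave p = 0.00124, or 0.00373 adjusted over the 6 ratio comparisons made. In the Msh3-/- background it went from 1.11 ± 0.0831 to 0.813 ± 0.0875 without overlap (exact permutation p = 0.000155, adjusted 0.000932). The Rasd2 to Rasd1 ratio gave adjusted p = 0.429 in both exact permutation comparisons, and the Rasgrf2 to Rasgrf1 ratio 0.429 and 0.446.

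Rasgrf1, a paternally expressed exchange factor of neurons, was nearly level across the study. Its lowest, median and highest values were 266, 288 and 328 CPM in WT, 264, 283 and 312 CPM in zQ175, 270, 297 and 321 CPM in Msh3-/- and 245, 280 and 328 CPM in zQ175:Msh3-/- striata. The 4 groups overlapped nearly throughout. The log2 fold change in zQ175 against WT was -0.02 (95% confidence interval -0.12 to 0.08, adjusted p = 0.811, edgeR), an interval within the 1.2-fold limits. Without Msh3 it was -0.04 (-0.14 to 0.06, adjusted p = 0.643). In that comparison males alone gave -0.16 (adjusted p = 0.0727, edgeR) and females alone 0.12 (adjusted p = 0.255), and neither passed the test.

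Rasgrf2, which acts on Ras and Rac, had values of 30.3, 45 and 65.6 CPM in WT, 28.3, 39.9 and 57.3 CPM in zQ175, 35.6, 47.3 and 58.9 CPM in Msh3-/- and 25.6, 43 and 54.8 CPM in zQ175:Msh3-/- striata. All 4 ranges overlapped, and the spread within each group was wide, with coefficients of variation from 16.6% to 26.7%. The log2 fold change was -0.19 (95% confidence interval -0.51 to 0.14, adjusted p = 0.433, edgeR) with Msh3 and -0.17 (-0.50 to 0.15, adjusted p = 0.474) without it, intervals that include a fall of more than 1.2-fold. With the cortical marker level in the model Rasgrf2 stood at -0.30 (adjusted p = 0.141, edgeR) with Msh3 and -0.31 (adjusted p = 0.141) without it, and at -0.27 in place of -0.09 in zQ175:Msh3-/- against WT (adjusted p = 0.215). Rasgrf2 lies 80.2 kb from Msh3 on chromosome 13, and its difference between Msh3 genotypes was 0.08 on the log2 scale (95% confidence interval -0.24 to 0.40) in mice without zQ175 and 0.09 (-0.24 to 0.42) in zQ175 mice.

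The 2 GAPs moved in opposite directions. Rap1gap, which turns off Rap1, fell from 438, 513 and 620 CPM (lowest, median and highest) in WT to 331, 375 and 431 CPM in zQ175 striata, without overlap. Its log2 fold change was -0.45 (SE 0.0661, 95% confidence interval -0.59 to -0.32, adjusted p = 2.28e-06, edgeR; exact permutation p = 0.000155), or 73.0% of WT. In Msh3-/- and zQ175:Msh3-/- striata the 3 values were 442, 547 and 598 and 343, 362 and 423 CPM, and the groups did not overlap in CPM. Per length they did, with 518 TPM at lowest in Msh3-/- and 543 TPM at highest in zQ175:Msh3-/- striata. On the log2 scale the change was -0.54 (SE 0.0662, adjusted p = 1.34e-07, edgeR).

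Rasal1, a calcium-responsive GAP for Ras, rose with zQ175. It ran from 20.9 over 24.6 to 34.8 CPM in WT and from 26 over 36.8 to 40.9 CPM in zQ175 striata. The groups overlapped, with 6 of 8 zQ175 mice above every WT mouse. On the log2 scale the rise was 0.41 (SE 0.117, 95% confidence interval 0.17 to 0.65, adjusted p = 0.00867, edgeR; exact permutation p = 0.00528). Against a 1.2-fold change the adjusted p was 0.45, and in males alone it was 0.184. Without Msh3, values of 21.3, 32.4 and 39.3 CPM in Msh3-/- and 26, 36.1 and 42.8 CPM in zQ175:Msh3-/- striata gave a log2 difference of 0.20 (95% confidence interval -0.04 to 0.44, adjusted p = 0.227, edgeR), which did not pass. The interaction of zQ175 and Msh3 for Rasal1 was -0.21 (95% confidence interval -0.55 to 0.13, unadjusted p = 0.215). Within genotypes Rasal1 followed the cortical excitatory neuron markers and also those of striatal interneurons (Pearson r = 0.67 and 0.68 over 32 mice). The summed level of the 8 cortical genes had a median of 164 TPM (range 46.6 to 251) in WT and 229 TPM (44.8 to 333) in zQ175 striata, with 1 of the 8, Cux2, called higher. With that level in the model the Rasal1 differences were smaller, at 0.30 on the log2 scale between zQ175 and WT (adjusted p = 0.0131, edgeR), which passed, and 0.07 without Msh3 (adjusted p = 0.624), which did not. In zQ175:Msh3-/- against WT striata the Rasal1 difference went from 0.46 to 0.28 (adjusted p = 0.0275, edgeR).

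**Figure D2:**
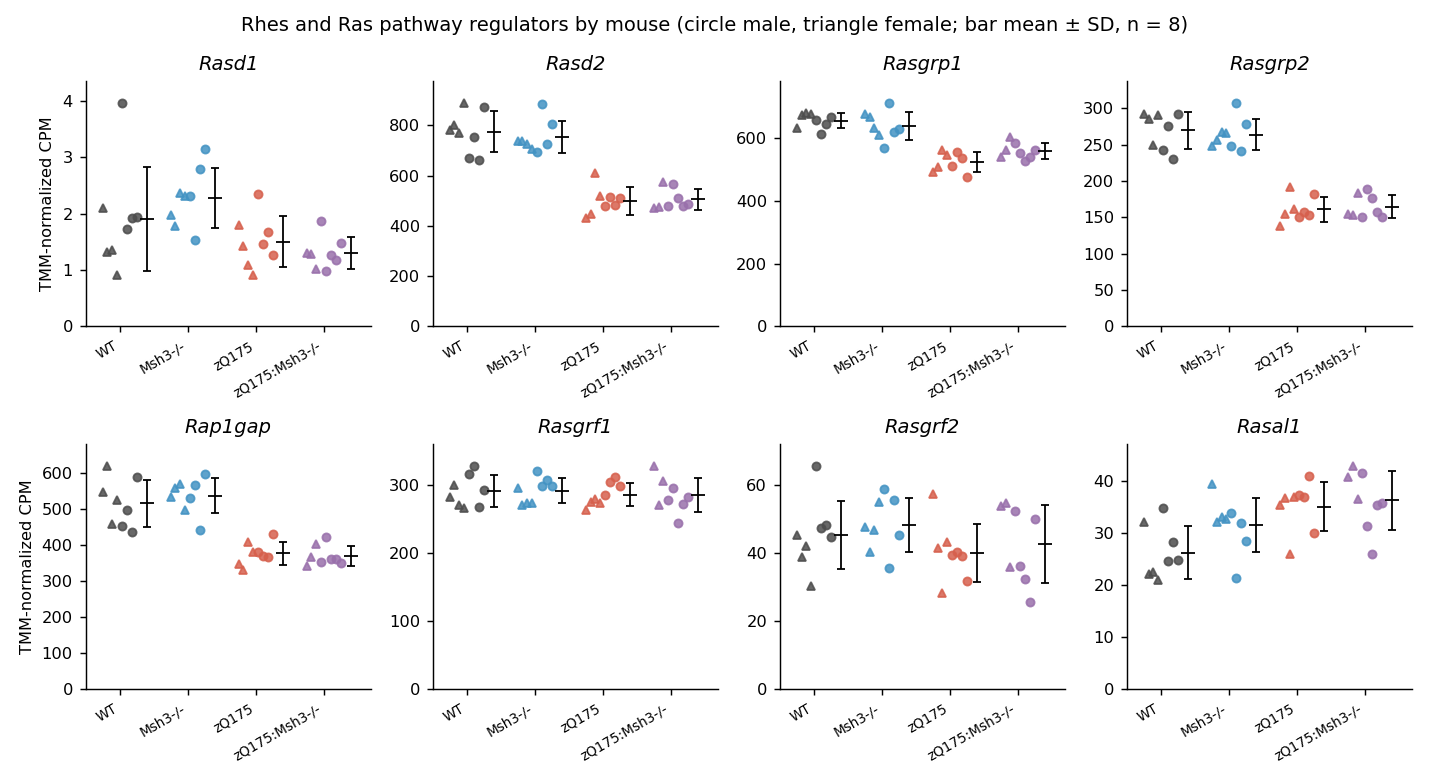
TMM-normalized CPM of each regulator in every mouse of the 4 genotypes, with circles for males, triangles for females and bars for the mean ± SD of 8 mice. The zQ175 and WT mice do not overlap for Rasd2, Rasgrp1, Rasgrp2 and Rap1gap, and 1 WT male stands at 3.96 CPM for Rasd1.

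In all, 4 of the 8 genes did not overlap between zQ175 and WT mice, where 6.63% of all tested genes did not. Between zQ175:Msh3-/- and Msh3-/- mice the count was 3 of 8 (Rasd2, Rasgrp2 and Rap1gap) against 5.39% of genes. By the adjusted p and the fold, 4 of 8 fell in that comparison (Rasd1, Rasd2, Rasgrp2 and Rap1gap) and none rose, where 5.96% of genes were called lower and 4.68% higher. The median log2 fold change of the 8 genes was -0.36. In zQ175:Msh3-/- against WT, which shares its WT mice with the first comparison, 5 of 8 were called. Rasd2 stood at -0.62, Rasgrp2 at -0.71, Rap1gap at -0.48, Rasd1 at -0.57 and Rasal1 at 0.46 on the log2 scale, beside backgrounds of 6.49% lower and 5.5% higher. Rasgrp1 at -0.23 passed the adjusted p (2.65e-05, edgeR) but not the fold. The Rasd1 call in this comparison (adjusted p = 0.0488, edgeR) was at the threshold: the groups overlapped, the exact permutation p was 0.0702, and the adjusted p was 0.0964 with DESeq2 and 0.249 without the WT mouse M1, when the log2 fold change was -0.31. With the cortical marker level in the model the Rasd1 log2 fold change was -0.78 (adjusted p = 0.00582, edgeR). With the choroid plexus level it was -0.57 (adjusted p = 0.0524), which did not pass. Males alone gave -0.83 (adjusted p = 0.0525) and females alone -0.24 (adjusted p = 0.654), and neither passed.

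Loss of Msh3 changed none of the 8 genes past the test, with or without zQ175. In zQ175:Msh3-/- against zQ175 striata, 0 of 8 were called by edgeR and 0 by DESeq2, and 0.00602% of all genes (Msh3 itself) were. At an unadjusted p under 0.05 there was 1 of the 8, Rasgrp1, and 3.7% of all genes. Rasgrp1 was 0.09 higher on the log2 scale in zQ175:Msh3-/- mice (95% confidence interval 0.01 to 0.18, unadjusted p = 0.0218, adjusted p = 0.999, edgeR), with 4 of 8 above every zQ175 mouse. For the 3 genes with the firmest zQ175 changes the intervals were narrow, from -0.12 to 0.15 for Rasd2, from -0.10 to 0.16 for Rasgrp2 and from -0.16 to 0.11 for Rap1gap, so a change of 1.2-fold in either direction lies outside them. For Rasd1 the interval, from -0.66 to 0.25, was too wide for such a statement.

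In Msh3-/- against WT striata, again 0 of 8 were called by edgeR and by DESeq2, where 0.00602% of genes were, and 1 of 8 had an unadjusted p under 0.05, where 5.09% of genes did. That gene was Rasal1, 0.26 higher on the log2 scale without Msh3 (95% confidence interval 0.02 to 0.50, unadjusted p = 0.0367, adjusted p = 0.926, edgeR; exact permutation p = 0.0609). The interaction was called for 0 of the 8 genes and for 0% of all genes in edgeR, and for 0 of the 8 in DESeq2. Unadjusted p-values under 0.05 were found for 1 of the 8 and 4.44% of all genes. The 1 gene was Rasgrp1, whose zQ175 effect was smaller by 0.13 on the log2 scale without Msh3 (95% confidence interval 0.02 to 0.24, unadjusted p = 0.0251, adjusted p = 0.999).

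**Figure D3:**
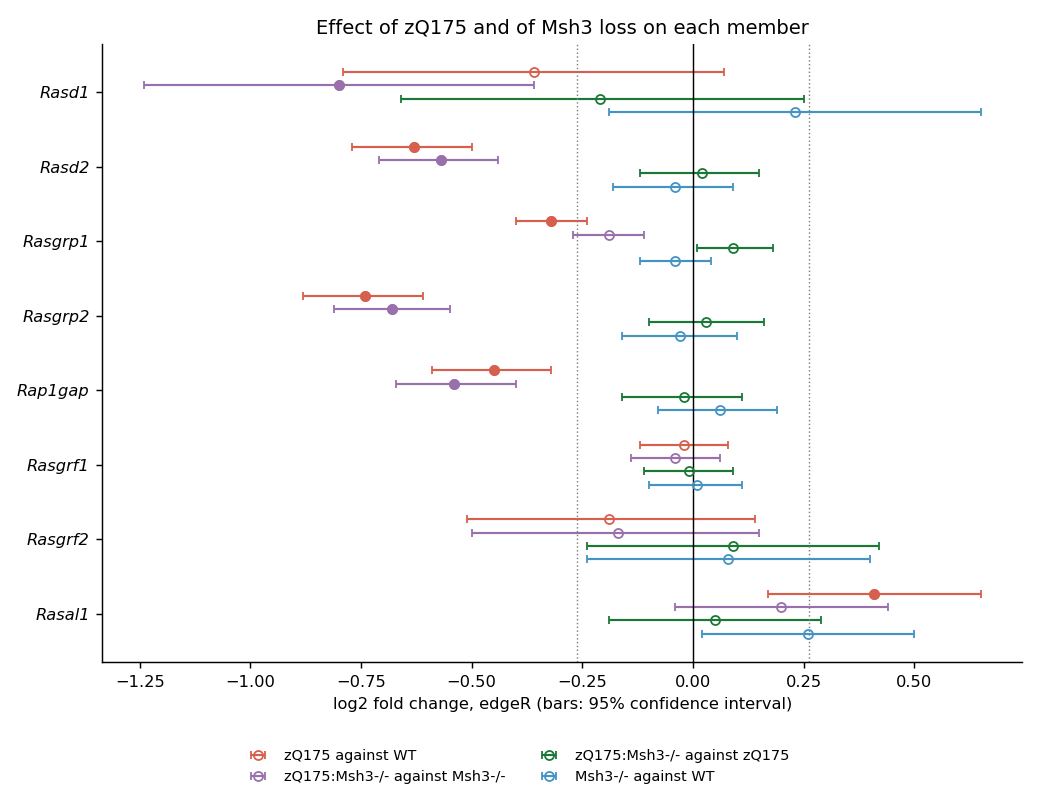
Log2 fold change of each regulator in 4 comparisons, with 95% confidence intervals from edgeR, filled where the adjusted p was under 0.05 and the fold at least 1.2 (dotted lines). The zQ175 effects on Rasd2, Rasgrp2 and Rap1gap lie below the lower dotted line with and without Msh3, and the effects of Msh3 loss stay between -0.21 and 0.26.

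Female and male mice differed in none of the 8 genes past the test in edgeR or DESeq2, where 0.169% of genes differed. At an unadjusted p under 0.05 there was 1 of the 8, beside 9.31% of all genes. That gene was Rasd1, lower in females by 0.39 on the log2 scale (a log2 fold change of -0.39, SE 0.142, unadjusted p = 0.00956, adjusted p = 0.351, edgeR). In WT striata its mean was 2.39 ± 1.05 CPM in 4 males and 1.43 ± 0.498 CPM in 4 females.

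The same regulators also varied together among mice of 1 genotype. To see this, the genotype mean of log2 CPM was subtracted from each mouse, and the remaining deviations were correlated over the 32 mice. The points share a library, its depth and the dissection, so the coefficients are descriptions without a test. Rasd2 and Rasgrp2 had a Pearson r of 0.87, Rasgrp2 and Rap1gap 0.77, and Rasd2 and Rap1gap 0.70, and these 3 are called the first set here. A second set, picked like the first once the values were seen, held Rasgrf2, Rasal1 and Rasd1, which had coefficients of 0.69, 0.62 and 0.57 with one another. Between the sets the sign was negative throughout, with -0.67 for Rasd2 against Rasgrf2 and also against Rasal1, and -0.60 for Rasd2 against its paralogue Rasd1. Rasgrf1 was correlated with no other member by more than 0.24 in size.

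The first set followed the markers of spiny projection neurons. Within genotypes their summed level had a Pearson r of 0.89 with Rasd2 (0.87 without the 2 mice farthest from their genotype mean of that level), 0.87 with Rasgrp2 and 0.73 with Rap1gap. It was -0.73 for Rasgrf2 and -0.71 for Rasal1, and 0.26 for Rasgrp1. Between genotypes, the summed level of these 12 markers had a median of 8916.3 TPM (7965.4 to 9461.7) in WT and 5239.8 TPM (4844.6 to 5946.8) in zQ175 striata, and 10 of the 12 fell (median log2 fold change -0.80), as did 10 of 12 without Msh3. Of 6 pan-neuronal markers, none was called in either comparison. The part of the spiny neuron marker level in the fall of Rasd2, Rasgrp2 and Rap1gap was not tested. With the cortical marker level in the model, the zQ175 changes were -0.59 for Rasd2, -0.68 for Rasgrp2 and -0.40 for Rap1gap, all past both thresholds.

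Other markers moved with the second set. Rasal1 had a Pearson r of 0.67 with the cortical excitatory neuron markers (0.60 without the 2 farthest mice), and Rasd1 one of 0.82 with 6 markers of striatal interneurons (0.79 without the 2 farthest). The interneuron markers also had coefficients of 0.68 with Rasal1 (0.54 without the 2 farthest) and 0.63 with Rasgrf2. With the cortical markers the coefficient was 0.43 for Rasd1 and 0.48 for Rasgrf2, and with their level in the model the Rasd1 log2 fold change was -0.48 (adjusted p = 0.0709, edgeR) in zQ175 against WT and -0.97 (adjusted p = 0.000553) without Msh3. The summed interneuron level ranged from 640 to 893 TPM in WT and from 700 to 825 TPM in zQ175 striata, and 2 of the 6, the cholinergic genes Slc5a7 and Chat, fell. The part of interneurons in the Rasd1, Rasgrf2 and Rasal1 values was not tested.

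**Figure D4:**
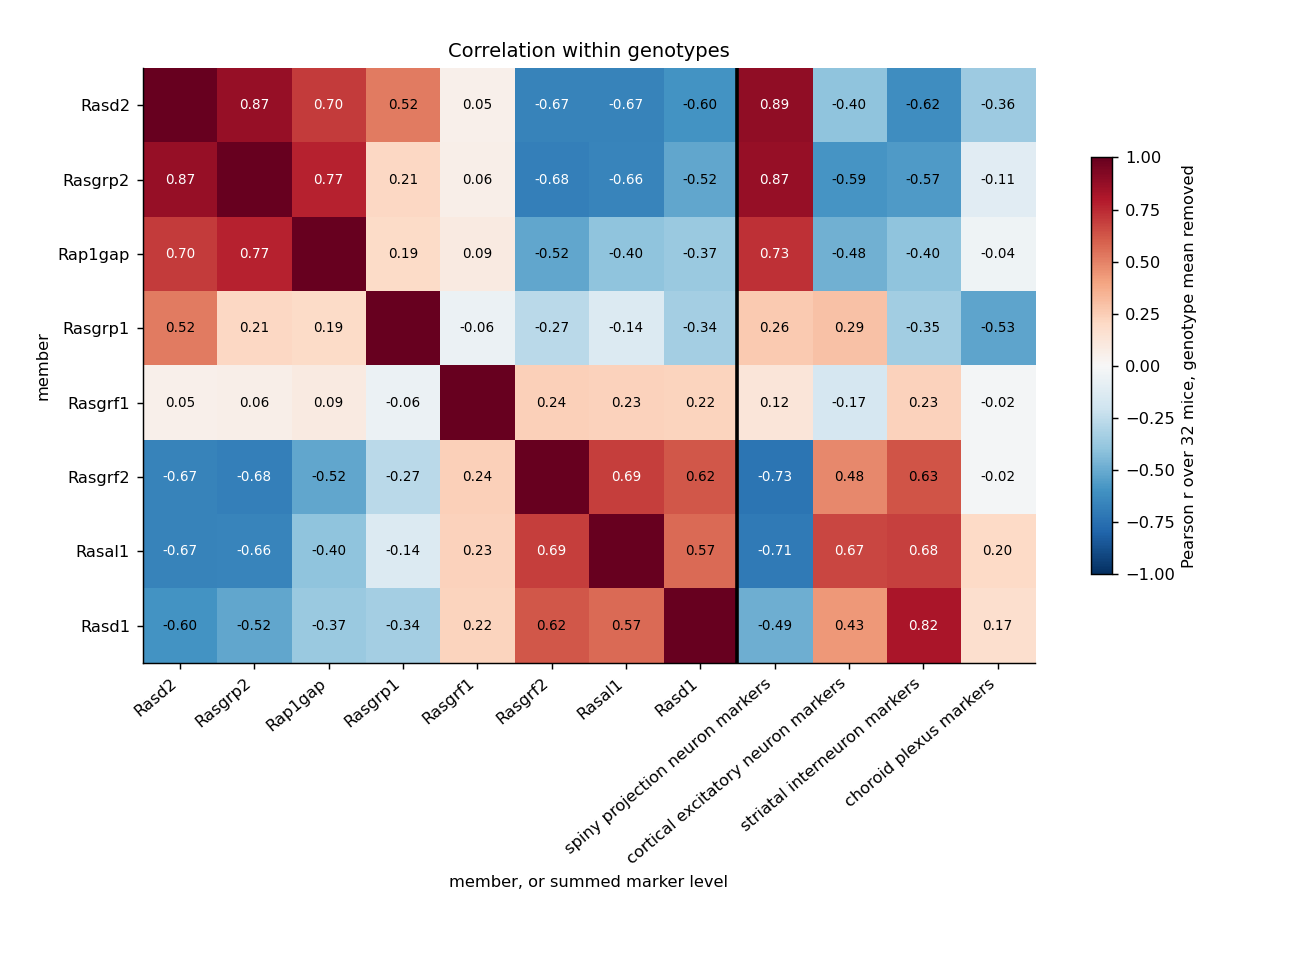
Pearson r over 32 mice after the genotype mean was removed, between the 8 regulators (left of the line) and between each and the summed level of 4 marker lists (right of the line). Rasd2, Rasgrp2 and Rap1gap form a block with r from 0.70 to 0.87, Rasgrf2, Rasal1 and Rasd1 a second one with r from 0.57 to 0.69, and Rasgrf1 stands apart.

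Genes with deviations much like those of Rasd2 were Drd2, the dopamine D2 receptor, with r = 0.97, then Actn2 (0.95), Adcy5 (0.94) and Smpd3 (0.90). These 4 fell in zQ175 striatum, by log2 fold changes from -0.85 for Adcy5 to -0.45 for Smpd3, although differences between genotypes were removed before the comparison. For Rasd1 the nearest were Serpina3n (0.77), Camk2d (0.75), Tubb2a (0.73), Gnas (0.73) and Tox (0.72), and Rasd2 was not among them. For the exchange factors they were Gas7 (0.88) and Osbp2 (0.86) with Rasgrp1, Inf2 (0.88) and Rasd2 (0.87) with Rasgrp2, Ap1b1 (0.77) and Pcdh10 (0.76) with Rasgrf1, and Camk2n2 and Dner (both 0.89) with Rasgrf2. For the GAPs they were Sh2d5 (0.84) and Ptpn5 (0.81) with Rap1gap, and Ak5 (0.89) and Atp2b4 (0.86) with Rasal1. Not all of these genes changed like the regulator they followed. Serpina3n and Tubb2a rose in zQ175 striatum (log2 fold changes 0.39 and 0.37, adjusted p = 0.0146 and 5.54e-05, edgeR), where Rasd1 did not pass. Pcdh10 rose (0.30, adjusted p = 2.06e-06, edgeR), where Rasgrf1 was nearly level. Inf2, Sh2d5 and Ptpn5 stood at -0.52, -0.65 and -0.54, and Rasgrp2 and Rap1gap fell too.

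**Figure D5:**
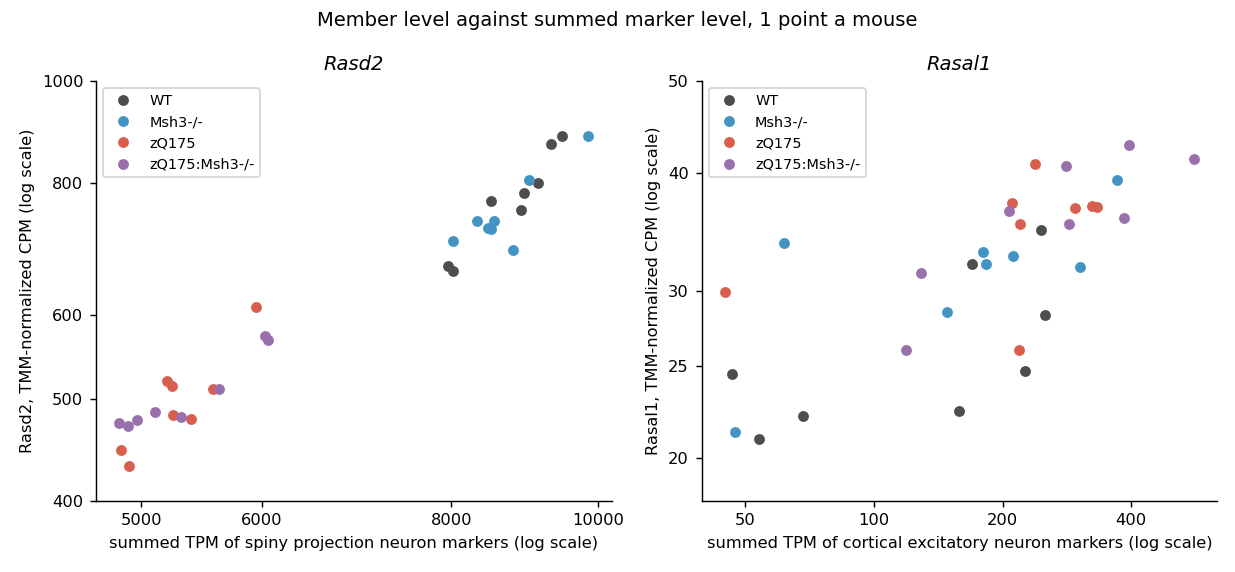
CPM of Rasd2 against the summed TPM of 12 spiny projection neuron markers (left) and of Rasal1 against 8 cortical excitatory neuron markers (right), log axes, 1 point a mouse. For Rasd2 the zQ175 carriers sit apart at marker levels of at most 6056.4 TPM, and for Rasal1 the marker levels of the genotypes overlap.

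The rest of the pathway gives the setting of these changes. Its gene lists were also chosen with earlier results of these data known, so their shares are descriptions. In zQ175 against WT, 6.89% of all genes were called lower and 4.7% higher. Without Msh3 the shares were 5.96% and 4.68%. Of 27 other Ras-family GTPases tested, 4 fell in zQ175 striatum and 1 rose, and the same numbers were called without Msh3. Hras, a classical Ras, fell from 184 to 130 CPM (log2 fold change -0.50, adjusted p = 1.83e-12, edgeR), and Rasl10b from 656 to 507 CPM (-0.37, adjusted p = 4.51e-08). Rerg and Rasl10a also fell, by -0.45 and -0.49, and Rhebl1 rose by 0.43. The median over these GTPases was 0.00, against 0.01 for all genes. Of 20 other exchange factors for Ras, Rap and Ral, 3 fell and none rose, with Rasgef1a at -0.53 (adjusted p = 2.32e-13, edgeR), Rasgef1b at -0.60 and Ralgps2 at -0.28. Without Msh3, Rasgef1a and Rasgef1b were called. Of 19 other GAPs, only Sipa1l1, which acts on Rap, was called in zQ175 against WT (-0.35, adjusted p = 8.83e-07, edgeR). This was 5.26% of the list, near the share of all genes called lower. Sipa1l1 and Sipa1l3 fell without Msh3.

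Downstream, 2 of 23 genes of the Raf-MEK-ERK cascade fell and none rose, a share close to the background. They were the kinases Rps6ka4 (MSK2) at -0.63 (adjusted p = 1.23e-12, edgeR) and Rps6ka5 (MSK1) at -0.70 (adjusted p = 8.88e-12), which phosphorylate CREB and histone H3 in the nucleus. Without Msh3 they stood at -0.74 and -0.56, and Rps6ka6 was called higher. Of 17 genes that dampen Ras or ERK, 7 fell and none rose in either comparison. This was 41.2% of the list, against 6.89% of all genes called lower with Msh3 and 5.96% without it. The list was chosen with earlier results of these data known, so this contrast is no test of it. The median log2 fold change was -0.14 with Msh3 and -0.27 without it. The furthest was Ptpn7, a phosphatase of ERK, from 11.3 to 3.61 CPM (-1.64, adjusted p = 8.89e-15, edgeR), and the striatal phosphatase Ptpn5 (STEP) stood at -0.54, Rin1 at -0.51, Spry2 at -0.37 and Spred1 at -0.30. Dusp1 and Dusp14 were the other two. Of 18 genes for reported partners of Rhes and Dexras1, 1 was called with Msh3, Htt itself at -0.32 (adjusted p = 4.76e-08, edgeR). This was 5.56% of the list, near the 6.89% of all genes called lower. None was called without Msh3, where Htt stood at -0.17 (adjusted p = 0.0016, under the fold). Htt is also the gene that holds the knock-in, and the part of the altered allele in its counts was not tested. In neither comparison of Msh3 genotypes was a gene of these lists called.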

How the data were processed

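Striatal RNA of 32 mice was sequenced as paired-end reads. The deposited counts are whole numbers of reads for each gene and are not normalized. The other deposited table, named as FPKM, is scaled by length, and because each of its columns sums to 1000000 its values were taken as TPM. The aligner, counting program and strand setting are not given in the sources used here, and the submitters' processing notes name GRCm38.p6. Of 54532 gene identifiers, 54495 were named from GENCODE M21. Genotype, sex and replicate number came from the sample labels.

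Differential expression was fitted to the counts in edgeR 4.0.16 (R 4.3.3), after TMM normalization and a low-count filter within the 4 groups (16610 genes kept), by robust quasi-likelihood fits of 1 model with 4 genotypes. Calls were made at a Benjamini-Hochberg adjusted p under 0.05 over all genes and a fold of at least 1.2. CPM are TMM-normalized. Exact permutation tests used log2 CPM. In simulated counts with zQ175 against WT libraries, edgeR recovered 83% of genes changed by 1.5-fold and 99% changed by 2-fold, with 3 false calls among 16327 genes. Alternatives were DESeq2 1.42.0, limma 3.58.1 on log2 TPM with pseudocounts of 0.1 and 1, other filters, scaling, thresholds and samples, and each mouse left out. The cortical and choroid plexus marker levels in the model, and the alternatives for the sex comparison, were added after seeing the data. Total counts ranged from 12359347 to 25030335, so a count of 3 is 2.43e-05% of the shallowest library.

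The 8 genes and all gene lists were chosen with earlier results of these data known. Named genes were the 8 regulators, up to 5 genes of each pathway list and 3 of each marker list with the smallest adjusted p among those past both thresholds in zQ175 against WT, the 5 most like Rasd2 and Rasd1 and the 2 most like each other regulator. One of the 5 for Rasd2 is not reported here. Of 222 listed symbols, 221 were in the table.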

Additional observations from a re-analysis of the deposited data

Results flagged for a closer look

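Rasd1 in WT striatum was the 1 of 32 sets of 8 mice (8 regulators in 4 genotypes) in which a mouse stood far from the rest. The male replicate M1 had 3.96 CPM, and the other 7 WT mice ranged from 0.913 to 2.11 CPM. Its gap to the nearest mouse was 0.607 of the range of the group, above Dixon's 95% critical value for 8 mice, and 0.432 on the log2 scale, below it. Chance flags about 1 set in 20, or 1.6 of 32. Without this mouse the Rasd1 log2 fold change was -0.10 in zQ175 against WT (adjusted p = 0.745, edgeR) and -0.31 in zQ175:Msh3-/- against WT (adjusted p = 0.249, edgeR). In zQ175:Msh3-/- against Msh3-/-, whose groups do not hold this mouse, the log2 fold change was -0.80.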

How the results depend on the processing

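Rasd2, Rasgrp2 and Rap1gap kept their direction and passed under all 15 alternatives and without any 1 mouse in both zQ175 comparisons, with log2 fold changes from -0.69 to -0.50 for Rasd2, from -0.79 to -0.57 for Rasgrp2 and from -0.57 to -0.35 for Rap1gap. Of the 8 regulators, 2 were called in each of the 3 zQ175 comparisons at a fold of at least 1.5, but not always the same 2. In both comparisons with WT they were Rasd2 and Rasgrp2. In zQ175:Msh3-/- against Msh3-/- they were Rasd1 and Rasgrp2, and Rasd2 at -0.57 fell short of that fold. Rap1gap did not reach 1.5-fold in any of the 3. The counts over all genes at this fold are given next. With a test against 1.2-fold, 3 of the 8 were called in zQ175 and in zQ175:Msh3-/- against WT, and in the latter 3 with males alone.

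Over all genes, the counts in zQ175 against WT (1925), zQ175:Msh3-/- against Msh3-/- (1768) and zQ175:Msh3-/- against WT (1992) were 4398, 4002 and 4469 without a fold limit, 538, 503 and 568 at 1.5-fold, and 641, 541 and 624 against 1.2-fold, which follows from the limits themselves. Against WT they were 1180 and 1244 with males alone and 1819 and 1798 with females alone, and in zQ175:Msh3-/- against Msh3-/- 1583 with males and 1067 with females alone (the cause was not tested). The Rasd1 call in zQ175:Msh3-/- against WT was lost in 10 of 15 alternatives and in 23 of 32 fits that left out a mouse (log2 fold change from -0.67 to -0.31, the cause was not tested).

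The values that changed sign did not pass the test, and most were near 0. Rasgrf1 went to 0.04, 0.04 and 0.04 (limma with pseudocounts of 0.1, 1 and 0.1 without a filter) in zQ175 against WT, to 0.03 in all 3 without Msh3, to 0.05, 0.04 and 0.05 in zQ175:Msh3-/- against WT, and to 0.00 in all 3 against zQ175. Rasgrp2 went to 0.00 in all 3 in Msh3-/- against WT. With females alone, Rasgrf1 was 0.12, 0.11 and 0.14 in the comparisons of zQ175:Msh3-/- with Msh3-/-, WT and zQ175 and -0.01 in Msh3-/- against WT. Rap1gap was 0.02 in females (zQ175:Msh3-/- against zQ175). Rasgrf2 was 0.12 (zQ175 against WT), 0.02 and 0.31 (zQ175:Msh3-/- against Msh3-/- and WT) in females. Males alone gave Rasgrf2 values of -0.46, -0.31 and -0.40 in the same order (adjusted p = 0.218, 0.369 and 0.244, edgeR). Whether the zQ175 effect on Rasgrf2 differs between the sexes was not tested. With males alone, Rasal1 was -0.09 (zQ175:Msh3-/- against zQ175), and in Msh3-/- against WT Rasd2 was 0.07, Rasgrp2 0.05 and Rasgrf2 -0.09. With the cortical marker level, Rap1gap was 0.00 and Rasal1 -0.02 in zQ175:Msh3-/- against zQ175. When 1 mouse was left out, zQ175:Msh3-/- against zQ175 ranged from -0.05 to 0.01 for Rap1gap, from -0.00 to 0.11 for Rasal1, from -0.01 to 0.06 for Rasd2 and from -0.04 to 0.02 for Rasgrf1. Rasgrf1 ranged from -0.01 to 0.03 in Msh3-/- against WT and from -0.04 to 0.01 in zQ175 against WT, and Rasgrf2 from -0.16 to 0.01 in zQ175:Msh3-/- against WT.

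The labels do not say what mice with the same replicate number share, and the main fit did not treat the numbers as pairs. The correlation of deviations had a median of -0.0119 (-0.23 to 0.218) over 45 same-numbered pairs, with 6 above 0.1. Such values cannot show that these mice share nothing. With the replicate block and sex in the model, 1931, 1694 and 1901 genes were called in the 3 zQ175 comparisons, and 5, 4 and 5 of the 8 regulators. The small number of Rasd1 reads, at most 89 a mouse, limits what can be said of it.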

Other observations

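Dexras1 was named for its induction by dexamethasone, and 14 other glucocorticoid-induced genes were examined beside it. This list and that of the immediate early genes below were chosen with earlier results of these data known. In zQ175 against WT striatum 4 of the 14 fell and none rose, where 6.89% of all genes were called lower and 4.7% higher: Mt1 (log2 fold change -0.29, adjusted p = 2.19e-06, edgeR), Cdkn1a (-0.41, adjusted p = 0.00068), Mt2 (-0.30, adjusted p = 0.0124) and Sult1a1 (-0.44, adjusted p = 0.0156). In zQ175:Msh3-/- against Msh3-/- striatum 4 fell as well, namely Sgk1, Per1, Cdkn1a and Mt1, beside 5.96% of all genes lower and 4.68% higher. The median log2 fold change was -0.23 and -0.20. Within genotypes their summed level had a Pearson r of 0.14 with Rasd1 over the 32 mice.

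Of 11 immediate early genes, which respond to ERK and calcium signals, Egr2 fell in zQ175 striatum, from 12.5 to 4.6 CPM (log2 fold change -1.45, SE 0.391, adjusted p = 0.00589, edgeR). This was 9.09% of the list, near the 6.89% of all genes called lower. In zQ175:Msh3-/- against Msh3-/- mice Egr1, Egr2 and Egr4 fell, with Egr2 at -1.86 (SE 0.389, adjusted p = 0.000636, edgeR), where 5.96% of all genes were called lower. The Msh3-/- mice were widely spread for these genes: Egr2 was at 17 ± 13.5 CPM (SD, n = 8), and the summed level of the 11 genes ran from 290 to 1457.1 TPM (SD 371), against 474 to 862 TPM (SD 116) in WT.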
